A study of Homo sapiens with 3 samples.

Results

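The 44 collagen genes described here are the protein-coding genes named COL, a type number, A and a chain number, out of 19970 protein-coding genes of the RefSeq annotation on chromosomes 1 to 22 and X. They comprise 11 fibrillar genes, the 6 basement membrane genes of type IV collagen (COL4A1 to COL4A6) and 27 other collagen genes. Binding of EP300 near them was measured by chromatin immunoprecipitation and sequencing (ChIP-seq) in H9, an established human embryonic stem cell line. The cells were wild type and in the naive pluripotent state, held in PXGL medium with the MEK inhibitor PD0325901, the tankyrase inhibitor XAV939, the protein kinase C inhibitor Gö6983 and human LIF, on a layer of mouse embryonic fibroblasts. The series has 2 EP300 samples of this single group and 1 input sample without antibody, so no condition can be compared and no test between groups was possible. Nothing in the labels says that the 2 samples came from separate cultures, so their spread may be technical. No source used here says whether mouse reads were removed, and a part of feeder cells in the values was not tested.

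Collagens are secreted or membrane-bound proteins of the extracellular matrix, each built from chains wound into a triple helix. Fibrillar collagens assemble into the tensile fibrils of skin, bone, tendon and cartilage. Type IV chains form the sheet-like network of basement membranes, which early embryonic epithelia also lay down. The remaining types include collagens that bind to fibrils, beaded filaments, short-chain networks and membrane-spanning proteins. EP300 is a histone acetyltransferase and coactivator that is recruited to active promoters and enhancers by transcription factors.

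The deposited peak tables named a collagen gene in 231 of 65276 peaks of replicate 1 and in 234 of 64896 peaks of replicate 2, after rows of the same interval were joined. Of the 44 genes, 42 were named in both lists. COL4A3, a type IV chain of kidney and lung basement membranes, and COL10A1, the collagen of hypertrophic cartilage, were named in neither. Strength is given as fold enrichment over input at the summit, the authors' value for each peak, whose median over all peaks was 4.51 in both lists. Paired values give it for replicate 1 and replicate 2, in that order. Overlapping peaks of the 2 replicates were merged into 46263 shared regions. The percentile of a region is its rank by fold enrichment in a list, taken from the list where it ranked lower. A promoter region was labelled by the authors as lying within 3 kb of a transcript start of the gene in both replicates, and a distal region carried no promoter label in either.

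Most collagen genes had a shared EP300 region at a promoter, 39 of 44 (88.6%), beside 66.9% of all coding genes. The count was 10 of 11 fibrillar genes (90.9%), 5 of 6 COL4 genes (83.3%) and 24 of 27 other collagen genes (88.9%). Collagen genes are long, with a median of 144.7 kb against 24.19 kb for all coding genes, and longer genes more often had a region. Among the other coding genes within the length range of each class, the share with a promoter region was 76.6% for fibrillar, 83.1% for COL4 and 76.4% for other collagens. The ranges of the fibrillar and other classes were wide, from 17.5 to 427.8 kb and from 16.8 to 493.9 kb. They held 11169 and 11494 coding genes, so they do not adjust for length within a class. Counted from the RefSeq 5′ end alone, whichever gene the authors assigned the region to, 36 of 44 collagen genes had a region within 3 kb (81.8%), against 75.6% of the 18837 coding genes with known strand. By that count all 6 COL4 genes were occupied, with 9 of 11 fibrillar and 21 of 27 other collagen genes. The 9 fibrillar genes include COL5A2, only through a region that the authors assigned to the neighbouring gene WDR75.

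**Figure D1:**
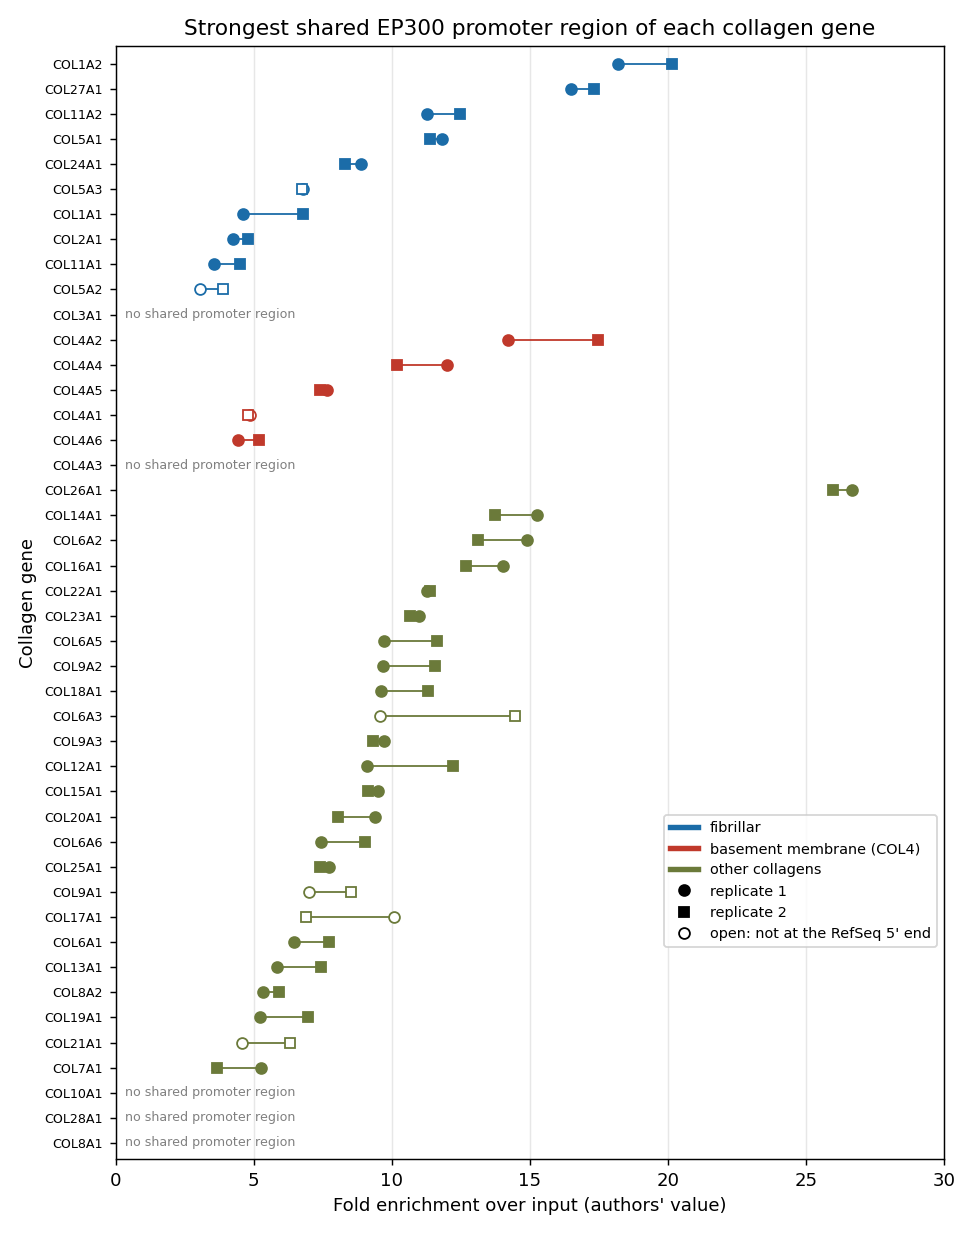
Fold enrichment over input (x axis) of the strongest shared promoter region of each collagen gene (y axis), with replicate 1 as circles and replicate 2 as squares, joined by a line and coloured by class. The lowest values are 3.05 in replicate 1, at COL5A2, and 3.66 in replicate 2, at COL7A1, the highest are 26.7 and 26.0 at COL26A1, and 5 genes have no shared promoter region.

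Fibrillar promoters spanned a wide range of strength. COL1A2, which encodes the second chain type of type I collagen, reached 18.2-fold over input in replicate 1 and 20.1-fold in replicate 2 (percentile 98.2) at chr7:94393350-94395559 (GRCh38). Its summits lay upstream, at -561 and -526 bp from the RefSeq 5′ end. COL27A1, a fibrillar collagen of cartilage, had 16.5 and 17.3 at its 5′ end (percentile 97.1) and a further promoter region about 1.8 kb inside the gene with 10.6 and 12.3. COL11A2, a cartilage chain, had 11.3 and 12.5, and COL5A1, whose chain regulates fibril diameter, had 11.8 and 11.4. These 4 genes ranked highest of the class, and each was well above the list medians in both replicates.

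Lower values were found at other major fibril genes. COL1A1, the partner chain of COL1A2 in type I collagen, had 4.60 and 6.80 at its 5′ end (percentile 52.2), below COL1A2 in both lists. COL2A1, the main cartilage collagen, had 4.26 and 4.81, and COL11A1 had 3.58 and 4.52. The COL2A1 region lay 1192 bp inside the gene, and no shared region covered its 5′ end itself. COL3A1, which accompanies type I collagen in skin and vessels, had no shared region, and each list assigned it a single peak that the other list lacked. Those COL3A1 peaks were intergenic and weak, with 3.06 in the list of replicate 1 and 2.96 in that of replicate 2. At COL5A2 the shared promoter region, with 3.05 and 3.90, lay at the start of a transcript of 147.9 kb inside a RefSeq gene of 409.2 kb. The RefSeq 5′ end of COL5A2 had a region of 11.9 and 9.68, which the authors assigned to the neighbouring gene WDR75. COL5A3 had its promoter region, with 6.78 and 6.75, near the start of a short internal transcript of 1.31 kb and none at the RefSeq 5′ end.

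The 6 COL4 genes lie in 3 head-to-head pairs, and the shared regions at their starts decreased in order from COL4A1-COL4A2 to COL4A3-COL4A4 to COL4A5-COL4A6. The COL4A1-COL4A2 region, at chr13:110306307-110309133, covered both 5′ ends with 14.2 and 17.5 (percentile 95.01). These chains form the type IV network common to nearly all basement membranes. The COL4A3-COL4A4 region, at chr2:227163806-227165213, had 12.0 and 10.2 (percentile 86.4). The COL4A5 end of the third pair had 7.65 and 7.40 (percentile 76.0) at chrX:108439430-108440673. The replicate 1 peak of this region also reaches the COL4A6 5′ end, and the replicate 2 peak begins short of it, at chrX:108439532. A separate region at chrX:108437812-108438432, inside COL4A6, had 4.43 and 5.21 (percentile 48.7). The replicate ranges of the 3 pairs did not overlap one another, with 2 values for each.

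The authors' table assigns each peak to 1 gene, so the region shared by each pair was counted for 1 of its genes, COL4A2, COL4A4 or COL4A5. COL4A3 was named in neither list although its 5′ end lay in a region. COL4A1 received its own promoter label from a weaker region 8.3 kb inside the gene, with 4.88 and 4.81 (percentile 54.5).

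At each pair 1 merged region spans the starts of 2 genes, at COL4A6-COL4A5 by the replicate 1 peak alone. The sequences between the paired starts are shown for this reason. They are 126 bp of chr13:110307158-110307283 for COL4A1-COL4A2, 135 bp of chr2:227164489-227164623 for COL4A4-COL4A3 and the 250 bp of chrX:108439588-108439837 nearest COL4A5 of a 379 bp gap. All are RefSeq sequence of GRCh38.p14 on the plus strand, 5′ to 3′, with each CpG dinucleotide in capitals.
COL4A1-COL4A2: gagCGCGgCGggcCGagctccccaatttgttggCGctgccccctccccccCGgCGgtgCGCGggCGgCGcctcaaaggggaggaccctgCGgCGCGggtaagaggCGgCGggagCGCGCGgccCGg
COL4A4-COL4A3: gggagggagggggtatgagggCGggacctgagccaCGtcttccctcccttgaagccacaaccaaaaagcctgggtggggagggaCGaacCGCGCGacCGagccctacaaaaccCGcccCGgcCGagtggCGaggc
COL4A6-COL4A5: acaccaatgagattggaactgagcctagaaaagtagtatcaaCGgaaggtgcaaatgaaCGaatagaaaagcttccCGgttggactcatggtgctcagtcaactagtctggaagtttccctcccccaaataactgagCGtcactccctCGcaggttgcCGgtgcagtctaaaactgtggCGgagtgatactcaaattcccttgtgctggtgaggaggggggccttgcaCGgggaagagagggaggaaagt
The intervals hold 20, 11 and 8 CpG dinucleotides in that order, which is 15.9, 8.15 and 3.20 per 100 bases. Peaks of both replicates covered every base of the 3 intervals. The rest of the COL4A6-COL4A5 gap was covered in full by the replicate 1 peak alone. The order of CpG density was the same as the order of fold enrichment, but 3 intervals cannot relate the 2, and no test was made. The summits lay outside the intervals, by 101 to 360 bp. The third density is that of a part of its gap.

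Among the other collagens, COL26A1 had the strongest promoter region of all 44 genes, with 26.7 and 26.0 (percentile 99.7) at chr7:101362231-101364309. Its summits lay 1279 and 1291 bp inside the RefSeq gene. The fibril-associated collagen COL14A1 followed with 15.3 and 13.7 (percentile 93.9). COL6A2, a chain of the beaded filaments of type VI collagen, had 14.9 and 13.1 (percentile 92.9), and COL16A1, also fibril-associated, had 14.0 and 12.7 (percentile 92.1). Each of these 4 promoter regions lay at the RefSeq 5′ end, and their order was the same in both lists.

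In the third class, all 10 fibril-associated genes and all 5 type VI genes had a promoter region, with a median percentile of 83.7 and 85.2 for the strongest region of each gene. So did the 4 membrane-spanning collagens (COL13A1, COL17A1, COL23A1 and COL25A1), with 74.7, and the 2 endostatin-type collagens COL15A1 and COL18A1, with 84.3. The anchoring fibril collagen COL7A1 was low, with 5.26 and 3.66 (percentile 30.9). Of the 3 short-chain collagens, COL8A2 was occupied, with 5.33 and 5.92, while COL8A1 and COL10A1 were not. COL8A1 had a promoter peak of 4.81 in replicate 2 alone and a shared intron region of 4.27 and 5.41. COL28A1 had no shared promoter region but 3 distal ones, the strongest with 8.42 and 9.61 in an intron.

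The next promoters of the class were those of COL22A1, of muscle-tendon junctions, with 11.3 and 11.4, and of the membrane-spanning COL23A1, with 10.99 and 10.67. COL6A5, COL9A2, COL9A3, COL12A1, COL15A1, COL18A1 and COL20A1 had 5′ end regions between the 79.0 percentile of COL20A1 and the 85.7 percentile of COL6A5. At COL9A2 and COL20A1 that region lay 994 and 1110 bp from the 5′ end. The region over the 5′ end itself was weaker, with 3.09 and 3.29 at COL9A2 (percentile 14.7) and 3.74 and 3.68 at COL20A1 (percentile 31.2). Below them came COL6A6 with 7.42 and 9.02, COL25A1 with 7.73 and 7.42, COL6A1 with 6.48 and 7.71 and COL19A1 with 5.24 and 6.98. The COL19A1 region lay 582 bp from the 5′ end. COL6A1 thus ranked below COL6A2, its neighbour on chromosome 21 and partner chain in type VI collagen, in both lists. COL9A1 and COL21A1 were occupied at a later RefSeq start and not at the 5′ end of the gene, with 7.01 and 8.54 at COL9A1 and 4.58 and 6.31 at COL21A1.

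At COL6A3 and COL17A1 the strongest promoter label pointed inside the gene. COL6A3 had its strongest promoter-labelled region, with 9.56 and 14.5, at 54163 bp from the 5′ end, near the start of a transcript of 1.09 kb. The region at the 5′ end of COL6A3 had 5.80 and 6.31. COL17A1, a collagen of the hemidesmosomes that anchor epithelia, had 4 promoter-labelled regions and none at the 5′ end, the strongest with 10.1 and 6.89.

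COL5A1, COL6A2 and COL17A1 were all chosen by their EP300 values. COL5A1 and COL6A2 are members of the fibrillar and the third class with high percentiles, and COL17A1 had no region at its 5′ end. The contrast between them was therefore set by the choice. Their promoters are printed below. Each is the 250 bases upstream of the RefSeq start in gene direction, from GRCh38.p14, with CpG in capitals. The intervals are chr9:134641553-134641802 on the plus strand, chr21:46097862-46098111 on the plus strand and chr10:104085881-104086130 on the minus strand.
COL5A1: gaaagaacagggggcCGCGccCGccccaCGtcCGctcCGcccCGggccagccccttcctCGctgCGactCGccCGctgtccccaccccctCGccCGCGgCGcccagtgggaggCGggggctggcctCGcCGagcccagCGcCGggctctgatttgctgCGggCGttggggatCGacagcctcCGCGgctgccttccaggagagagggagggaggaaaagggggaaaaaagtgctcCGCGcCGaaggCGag
COL6A2: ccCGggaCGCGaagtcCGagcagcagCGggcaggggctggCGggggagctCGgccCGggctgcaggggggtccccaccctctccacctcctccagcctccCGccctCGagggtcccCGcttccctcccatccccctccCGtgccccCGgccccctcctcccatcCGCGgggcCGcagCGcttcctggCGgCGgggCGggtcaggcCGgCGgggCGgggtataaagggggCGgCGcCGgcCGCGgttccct
COL17A1: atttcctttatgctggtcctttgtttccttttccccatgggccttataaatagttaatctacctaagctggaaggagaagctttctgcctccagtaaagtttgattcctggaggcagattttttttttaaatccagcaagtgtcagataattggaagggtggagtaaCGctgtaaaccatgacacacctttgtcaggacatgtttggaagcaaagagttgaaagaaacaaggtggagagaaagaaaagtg
COL5A1 has 29 CpG in this window, COL6A2 has 28 and COL17A1 has 1. Peaks of both replicates covered the first 2 windows in full, and no shared region reached that of COL17A1. Over 15811 coding genes with a promoter sequence, running from 250 bases before to 50 after the start, the median CpG count was 27 where a shared region covered the start and 5 where none did. Only 32 of the 44 collagen genes (72.7%) have such a sequence here, which is too few for a comparison of CpG content over the set, and that check is void. Among those 32, the counts ran from 4 to 46 at the 25 starts inside a shared region. They ran from 1 to 17 at the 7 starts outside, so the ranges overlapped.

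Collagen genes often carried several promoter-labelled regions, and the further ones were weak. Of 44 genes, 16 had 2 or more (36.4%), against 16.6% of all coding genes, 19.9% of coding genes in the length range of the fibrillar or the other collagens and 24.6% in that of COL4. They were 4 fibrillar genes, 1 COL4 gene and 11 other collagens. Of the 86 promoter regions, 37 lay at the RefSeq 5′ end of 33 genes and 49 at another start of 20 genes (57.0%). Over all coding genes, 27.5% of promoter regions lay at another start.

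**Figure D2:**
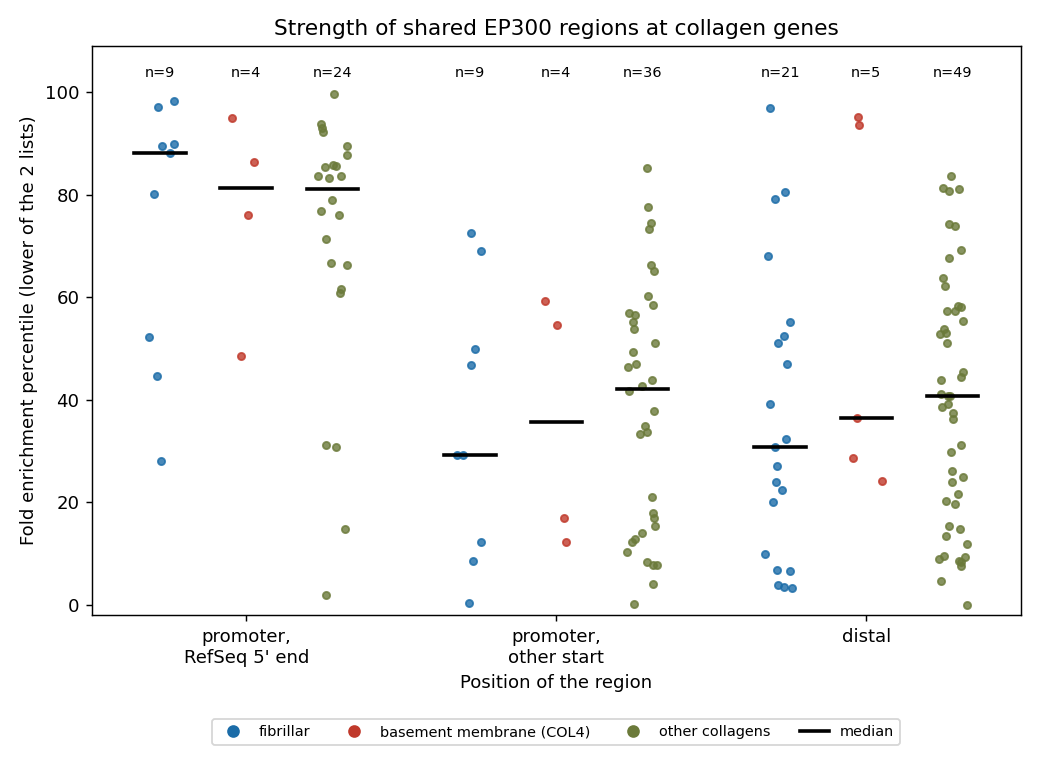
Fold enrichment percentile (y axis, the lower of the 2 lists) of each shared collagen region by its position and class (x axis), with the number of regions above and the median as a bar. Regions at the RefSeq 5′ end have class medians of 88.1, 81.2 and 81.1, and the other 2 positions lie lower.

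The 5′ end regions had a median percentile of 83.2, against 77.1 over all coding genes. By class the medians were 88.1 for fibrillar, 81.2 for COL4 and 81.1 for other collagens. The regions at other starts had a median of 41.7, against 57.3 over all coding genes, close to the 38.6 of collagen distal regions. Over all 86 promoter regions the collagen median was 54.9, against 73.4 over all coding genes. Where each gene counted once by its strongest region, the medians were 80.1 and 80.3. The transcripts behind the 47 regions at starts not among the RefSeq starts used here had a median length of 7.43 kb, or 15.3% of the gene, and 20 of them spanned under 10% of it. The promoter label of those 47 regions therefore names a start inside the authors' transcript annotation, not the gene's RefSeq 5′ end.

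Distal EP300 regions were present at 24 of 44 collagen genes (54.5%), beside 20.2% of all coding genes. Within the length range of each class, the share of other coding genes was 24.5% for fibrillar, 37.1% for COL4 and 24.7% for other collagens. Those ranges are wide for the fibrillar and other classes and do not adjust for length within them. By class, 6 of 11 fibrillar, 3 of 6 COL4 and 15 of 27 other collagen genes had a distal region. The mean number per gene was 1.91 ± 4.09 (SD over 11 genes) for fibrillar, 0.833 ± 1.17 (6 genes) for COL4 and 1.81 ± 2.68 (27 genes) for other collagens. The spread over genes within a class exceeded the differences between the classes. With each region assigned to the nearest RefSeq 5′ end instead, the collagen total was 167 distal regions in place of 75. The means were then 2.45 per fibrillar, 2.17 per COL4 and 4.70 per other collagen gene. The order of the classes thus changed, with other collagens highest. No value over all coding genes was taken under that assignment. By the authors' assignment, the mean over coding genes was 0.422, and over those in the 3 length ranges 0.523, 0.976 and 0.526. Pooled over gene length, distal regions numbered 1.08 per 100 kb for collagen genes, against 0.652 for all coding genes. By class the value was 1.28 for fibrillar, 0.399 for COL4 and 1.20 for other collagens. Shared regions of any kind within the gene had a median of 2.45 per 100 kb for collagen genes, against 2.83 for all coding genes. Pooled, they numbered 2.67 per 100 kb, against 2.28. The fibrillar mean rested on COL5A1 and fell to 0.7 per gene without it, and the COL4 mean fell to 0.4 without COL4A2.

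**Figure D3:**
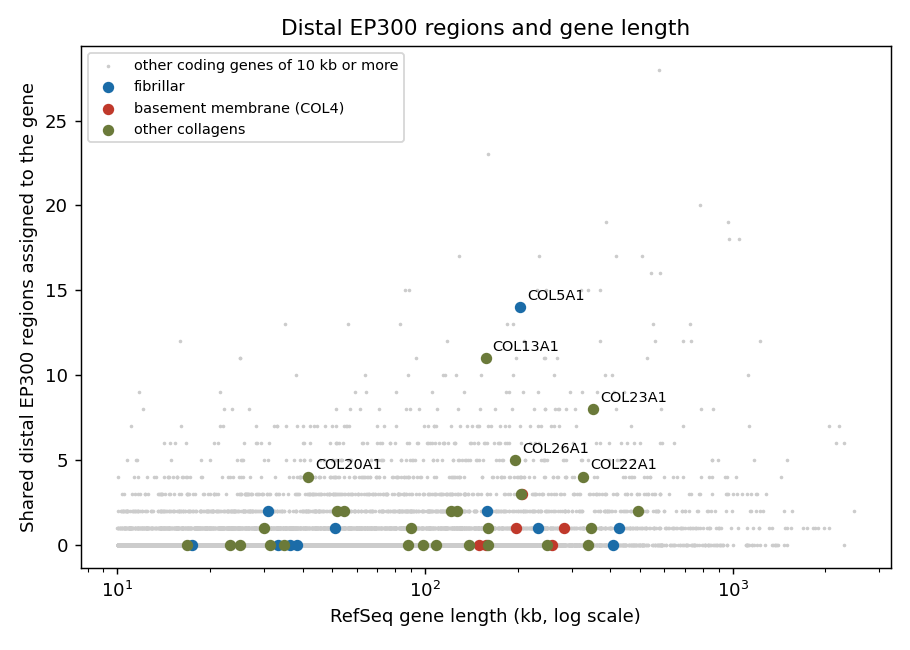
Number of shared distal regions assigned to a gene (y axis) against RefSeq gene length (x axis, log scale) for collagen genes by class and for other coding genes of 10 kb or more in grey. COL5A1 with 14 and COL13A1 with 11 lie far above most genes of their length.

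COL5A1 had 14 distal regions in addition to its 6 promoter-labelled ones, and 20 coding genes had more distal regions. Of the 14, 4 lay upstream and the strongest, with 8.24 and 8.41, lay in an exon 170755 bp from the 5′ end. COL11A2 and COL27A1 had 2 each, and COL5A3, COL11A1 and COL24A1 had 1 each. The intron region of COL24A1, a fibrillar collagen of developing bone, had 7.93 and 8.11, near the 8.88 and 8.31 of its promoter. The strongest distal region of the class lay just beyond the 3′ end of COL11A2, at chr6:33161255-33162650, with 21.3 and 16.7 (percentile 97.0), above the COL11A2 promoter in both lists.

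COL13A1, a membrane-spanning collagen of the neuromuscular junction and other adhesion sites, had 11 distal and 10 promoter-labelled regions. Only 5 coding genes had more promoter regions. Its regions filled the middle of the gene, and 22 shared regions lay in its 157.2 kb. Its distal regions were led by 1 of 9.07 and 12.5, above its 5′ end promoter of 5.84 and 7.45, which lay 290 bp inside the gene. The region over the 5′ end itself had 2.52 and 2.95 (percentile 1.96), the lowest of the 37 collagen 5′ end regions. COL23A1, also membrane-spanning, had 8 distal regions, and 10 of its 12 internal regions lay in the 25% of the gene next to the 5′ end. Of the 29 shared regions within COL23A1, 15 were assigned to no collagen gene. COL20A1, fibril-associated, had the highest density of the 44 genes, with 11 shared regions in 41.6 kb.

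Of the 5 COL4 distal regions, 2 were among the strongest collagen regions of any kind. One lay in an exon of COL4A2 at chr13:110484017-110489391, 28.2 kb before the 3′ end, with 14.3 and 19.9 (percentile 95.2). The region at the shared COL4A1-COL4A2 start had 14.2 and 17.5, slightly less in both lists. The other lay in an intron of COL4A4 at chr2:227064670-227065664, with 16.5 and 13.5 (percentile 93.6), above the COL4A3-COL4A4 start in both lists. COL4A6 had 1 weak region, with 3.64 and 3.61, labelled intron in replicate 1 and exon in replicate 2. COL4A1, COL4A3 and COL4A5 had no distal region assigned. In all, 10 of the 166 collagen regions reached the 90th percentile (7 at 5′ ends and 3 distal), beside 11.3% of all shared regions.

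**Figure D4:**
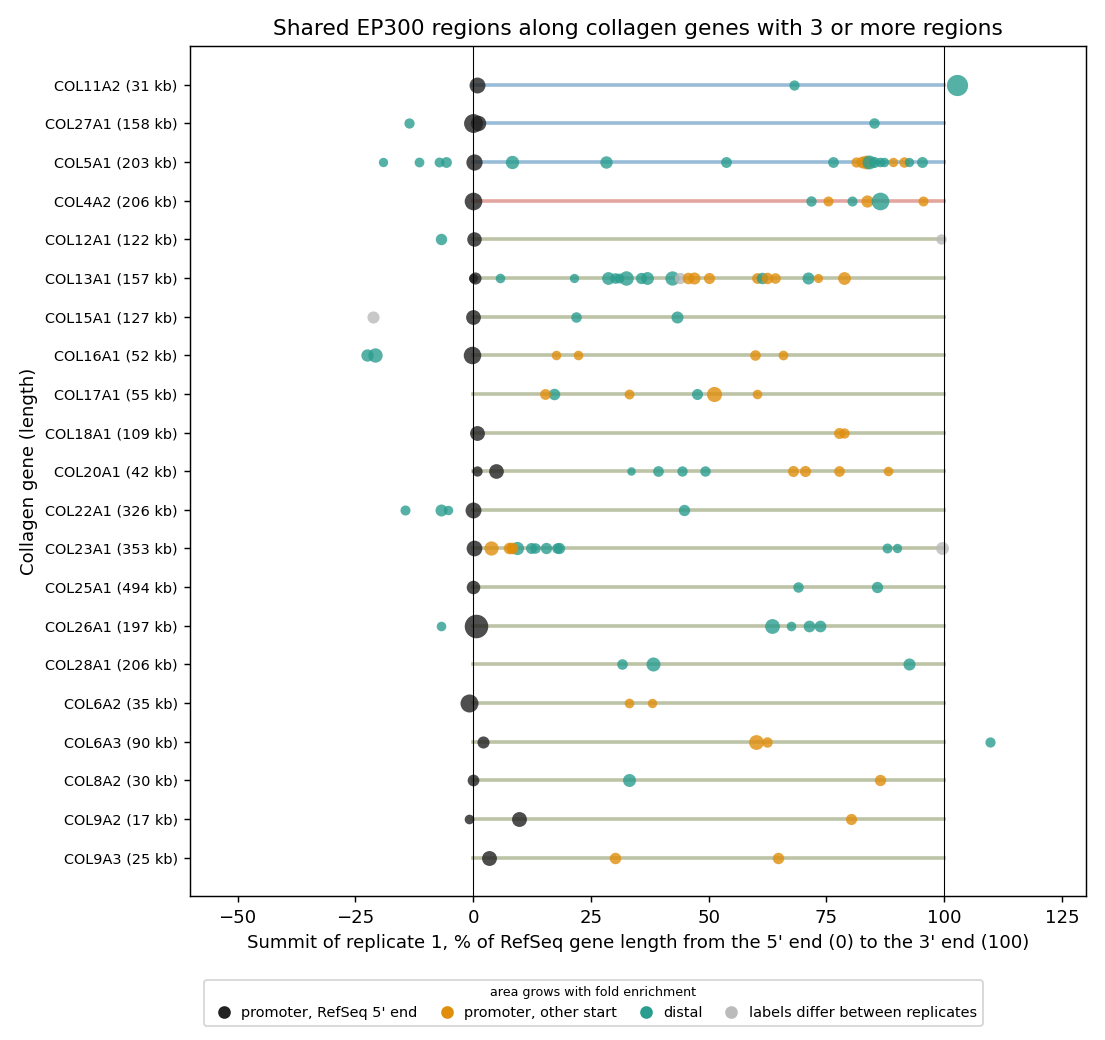
Position of each shared region along the 21 collagen genes with 3 or more promoter and distal regions, as percent of gene length from the 5′ end (0) to the 3′ end (100), with point area growing with fold enrichment. The internal regions of COL5A1 and COL4A2 lie toward the 3′ end, those of COL13A1 in the middle and those of COL23A1 toward the 5′ end, and 1 region lies outside the axis.

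Inside the gene, most fibrillar regions lay toward the 3′ end, by a split of the gene chosen after the values were seen. Of 24 regions in the bodies of 9 fibrillar genes, over 3 kb from the 5′ end, 19 had their summit in the last 25% of the gene's length (79.2%). COL5A1 supplied 12 of the 19, and without it 7 of 9 lay there (77.8%), at COL1A1, COL2A1, COL5A3, COL11A1, COL24A1 and COL27A1. In COL4 genes 6 of 9 lay in that last part, 5 of them in COL4A2. In other collagens 12 of 78 did (15.4%). Over coding genes of 100 kb or more, 25.9% of such regions lay there, and over all coding genes 24.2%. The median fibrillar gene has 50.9 kb, and neither background was matched to the class in length. Counted in each list alone, shared or not, the fibrillar share was 65.0% of 40 peaks in replicate 1 and 58.3% of 36 peaks in replicate 2.

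Exon labels on collagen peaks away from promoters were carried by few genes, COL5A1 first. Over all collagen genes the count was 22 of 119 (18.5%) in each replicate, against 5.60% of all such peaks in replicate 1 and 5.62% in replicate 2. For fibrillar genes it was 34.3% and 30.3%, for COL4 genes 3 of 13 and 4 of 8, and for other collagens 9.86% and 10.3%. COL5A1 held 11 of the 12 fibrillar exon peaks in replicate 1 and 9 of 10 in replicate 2. Without it the share was 11.2% and 13.3% of collagen peaks away from promoters, and 1 of 14 and 1 of 12 for fibrillar genes. Collagen genes have many short exons, and the share of their length that is exonic was not measured here. Promoter peaks made up 48.5% and 49.1% of collagen peaks, against 47.9% and 48.0% of all peaks. Of the 75 distal regions, 60 lay within the gene and 15 outside it.

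**Figure D5:**
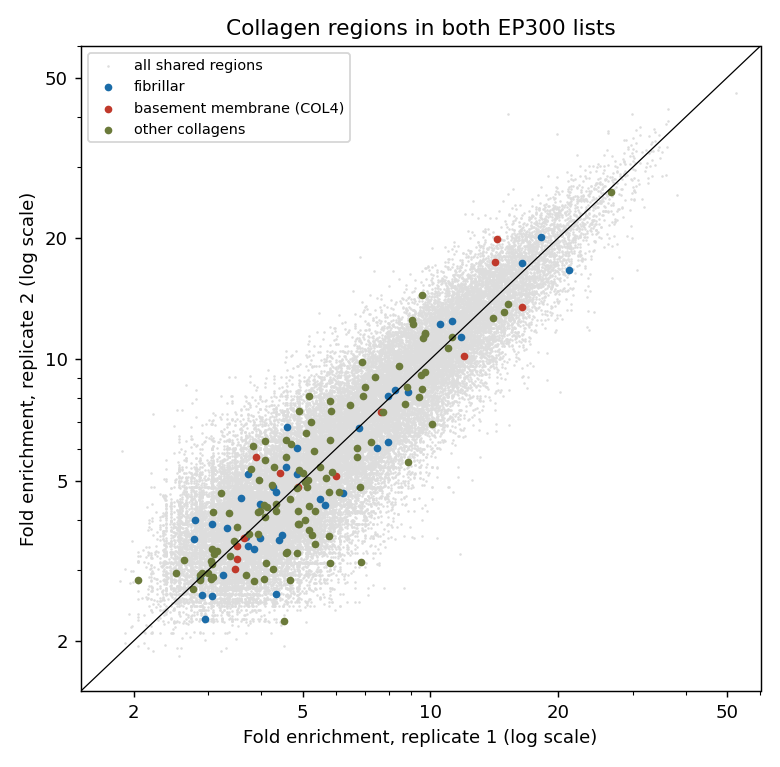
Fold enrichment of shared regions in replicate 1 (x axis) and replicate 2 (y axis), both on log scales, with all regions in grey, collagen regions coloured by class and the line of equality. Of the collagen regions, 92.2% lie within 1.5-fold of the line.

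The 2 samples gave like values for the collagen regions. Of 231 collagen peaks in replicate 1, 173 were shared with replicate 2 (74.9%), against 74.5% of all peaks, with a Wilson 95% interval from 68.9 to 80.0. From replicate 2 it was 174 of 234 (74.4%, 68.4 to 79.5), against 73.9%. The intervals cover counting error only. COL4 peaks were shared least in replicate 1, at 54.2% of 24 (35.1 to 72.1), and at 70.0% of 20 in replicate 2 (48.1 to 85.5). The first of these intervals ends below the value for all peaks and the other includes it. Of the 24 COL4 peaks in replicate 1, 15 were assigned to COL4A2, and so were 8 of the 11 unshared ones. Peaks of 1 gene may not be independent, so the intervals do not compare the class with all peaks. Unshared collagen peaks were weak, with median percentiles of 19.9 and 23.9. For the 166 collagen regions the log2 ratio of the replicates had an SD of 0.34, against 0.35 over all regions. All 37 regions at 5′ ends agreed within 1.5-fold.

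Genes that build, process and read collagen were mostly occupied as well. Of 47 such genes, 41 had a promoter region (87.2%), beside 66.9% of all coding genes. The list was chosen with earlier results of these data known, so the share is a description only. The strongest region of each occupied gene had a median percentile of 84.1, against 80.3 over all coding genes. The lowest was 3.74 at the receptor gene DDR2, and the genes named below are the highest of each role. All 10 genes listed under prolyl hydroxylation were occupied, led by P4HA1 with 18.4 and 18.5 and P3H3 with 16.1 and 20.2. So were all 5 of lysyl hydroxylation and glycosylation, led by COLGALT2 with 14.3 and 13.3 and COLGALT1 with 8.94 and 10.5. The 3 genes of folding and secretion were occupied, with MIA2 at 21.7 and 26.9 and the collagen chaperone SERPINH1 at 15.2 and 21.4.

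All 8 genes of propeptide cleavage had a promoter region, with the proteinase enhancer PCOLCE2 at 27.3 and 30.3 and the procollagen peptidase ADAMTS3 at 21.7 and 20.4. ADAMTS2, another procollagen peptidase, had 17 distal regions. All 6 crosslinking genes were occupied, led by peroxidasin (PXDN), which crosslinks type IV collagen, with 21.3 and 21.2, and the lysyl oxidase LOXL3 with 14.7 and 16.6. Receptor and collagenase lists had members without a region. Of 9 receptor genes 6 were occupied, led by ITGB1 with 11.5 and 8.87 and DDR1 with 7.56 and 10.9, and ITGA1, ITGA10 and GP6 had none. Of 6 collagenase genes 3 were occupied, led by MMP2 with 18.2 and 20.9 and MMP14 with 14.8 and 15.0, and MMP1, MMP8 and MMP13 had none.

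Peak lists hold no RNA, so the labelled cell state could be set only beside EP300 at marker genes. All 7 naive state genes and all 5 genes shared by pluripotent states had a promoter region, beside 66.9% of all coding genes. These lists too were chosen with earlier results of these data known. TFAP2C was highest of the naive genes at 22.4 and 27.1, and LIN28A of the shared genes at 21.0 and 23.9. Others were weak, with 3.56 and 3.14 at DPPA3 and 3.69 and 3.63 at SOX2, below the list median in both lists. KLF17 had 2.90 and 6.88, on either side of it. Whether any collagen gene was transcribed in these cells was not measured in the files used here.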

How the data were processed

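EP300 ChIP-seq was analysed from 2 samples of 1 group, with 1 input sample that has no table used here. Per the file headers, each deposited row is a peak summit with a fold enrichment (a ratio), a −log10 p-value, a −log10 q-value and a score. The score was not used. The largest deposited q-value was 0.0497 in replicate 1 and 0.0498 in replicate 2, both rounded. There is 1 deposited table for each EP300 sample, and the names of these tables give the annotation tool, ChIPseeker, and the comparison with input. The submitters' processing notes name fastp 0.19.11 and GRCh38. Aligner, caller and threshold: not given in the sources used here. Read depth is unknown, since the authors' tables hold no read counts.

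Rows of equal interval were joined, keeping the highest fold enrichment and its summit. Peaks of the 2 replicates that overlapped by at least 1 bp were merged into shared regions. Genes and promoter sequences came from RefSeq GRCh38.p14. Strand was taken from the promoter sequences or the authors' annotation. Regions counted for the last 25% of a gene lay over 3 kb from the RefSeq 5′ end. With 1 group, counts are given beside the same over all coding genes and no test was made. The genes named are all COL4 genes, the 4 highest promoters and the 2 genes with most distal regions of each other class, members without a promoter region and the 2 highest pathway genes of each role. Other genes were named after their values were seen, and the split at the last 25% of the gene was also chosen then. The members and lists were chosen with earlier results of these data known. The merging was tested on simulated data. Alternatives changed the fold enrichment and q-value minimum, overlap, promoter window, gene ends and replicates. Python 3.11.15, pandas 2.3.3 and scipy 1.17.1 were used.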

Additional observations from a re-analysis of the deposited data

How the results depend on the processing

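Of 94 values from alternative settings for 15 results, 57 stayed within 1.5 times the value given or, for the percentages and the percentile, within the replicate spread or the interval, and 37 moved. The number of collagen genes with a promoter region stayed between 31 and 41. With a fold enrichment of at least 5, 6 fibrillar and 3 COL4 genes kept a promoter region. Distal regions then numbered 19, with 0.364, 0.333 and 0.481 per fibrillar, COL4 and other gene, and 78.3% of peaks were shared. The median promoter percentile was 81.6, but ranks were kept from the full lists, so the filter itself fixed that rise. With a −log10 q-value of at least 5 the distal regions numbered 36 (0.818, 0.5 and 0.889 per gene), the percentile was 70.2 and 78.4% were shared. An overlap of 50% gave 70.8% shared, and summits left unjoined gave 79.5%. A promoter window of 1 kb gave a percentile of 59.4. With regions assigned to the nearest RefSeq 5′ end, the distal regions numbered 167 instead of 75. They numbered 2.45 per fibrillar, 2.17 per COL4 and 4.70 per other gene, and the percentile was 83.2. Promoters at the RefSeq 5′ end alone, chosen after seeing the data, also gave 83.2 and left 33 genes. Without COL5A1 and COL13A1 the fibrillar mean was 0.7, and without COL4A2 the COL4 mean was 0.4. Without COL5A1, chosen after seeing the data, the exon-labelled share of peaks away from promoters was 7.14% and 8.33% in replicates 1 and 2 for fibrillar genes and 11.2% and 13.3% for all collagens. With either replicate left out, so that peaks need not be shared, distal regions numbered 119 both times. The fibrillar mean was then 3 to 3.18, the COL4 mean 1.33 to 2.17, the mean for other collagens 2.63 to 2.89, the percentile 49.8 to 52.7 and the fibrillar share in the last 25% of the gene 58.3% to 65.0%. The cause of these shifts was not tested beyond the fewer or more peaks each setting admits. No paired analysis was possible because only 1 group has replicates. Read depth is unknown, so weak regions missed in 1 list cannot be told apart from absent ones.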
